A study of Caenorhabditis elegans with 21 samples.

Results

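The *clec* genes of *Caenorhabditis elegans* are named for a C-type lectin-like domain, and their members were taken as every row of the expression table whose name is *clec* followed by a number. This rule found 223 genes of the 22840 in the table, and no expression value entered it. Their mRNA was measured in whole worms of 9 genotypes, in 21 libraries. Each *pmk-1* mutation was studied alone and in 2 *daf-16* backgrounds. *daf-16(mgDf50);pmk-1(D327E)*, *daf-16(mgDf50);pmk-1(-)*, *daf-16(m26);pmk-1(D327E)* and *daf-16(m26);pmk-1(-)* were the double mutants, with 2 libraries each. *daf-16(mgDf50)*, a deletion, and *daf-16(m26)*, a splice site mutation, were the *daf-16* single mutants, with 2 libraries each. *pmk-1(D327E)*, the allele miy7, carries a CRISPR change of an aspartate in the endogenous protein that abolishes its cleavage by the CED-3 caspase, and *pmk-1(-)*, the allele km25, is the null mutant. These single mutants and wild type had 3 libraries each. For every strain, eggs from bleached adults hatched during 24 h in M9 buffer, and the synchronous larvae were fed OP50 bacteria for 48 h at 20 °C without pathogen or added stress. The labels call the worms at harvest late L4, whereas the methods call them young adults, and each genotype was 1 strain. The strains are listed with outcrosses for the *pmk-1* single mutants and none for the double mutants, and the wild type was derived alongside *pmk-1(D327E)*. The libraries of a genotype are described as biological replicates, each from a large pool of worms.

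C-type lectin-like domains form a fold that in many animal proteins binds carbohydrates, often with calcium. *C. elegans* has a large family of such genes, many of them encoding secreted proteins, and transcripts of several members are known to rise in the intestine of worms fed pathogenic bacteria. PMK-1 is a p38 mitogen-activated protein kinase that acts below TIR-1, NSY-1 and SEK-1 and, through the transcription factor ATF-7, sets the basal and induced expression of many intestinal immunity genes. DAF-16 is the FOXO transcription factor restrained by insulin-like signalling through DAF-2. The comparisons asked which *clec* transcripts change when PMK-1 is lost or made resistant to caspase, and whether the same differences were present in *daf-16* mutants.

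The study also measured *clec-67*, on chromosome IV, by RT-qPCR. The primer pair is given because that gene had the lowest mean of the tested members in *pmk-1(-)* worms and the largest log2 difference between *pmk-1(D327E)* and *pmk-1(-)*. The lower-case letters are the designed oligos 5′ to 3′, 20 bases each, and the source does not say which is the forward primer.
WWY_Q0090: ggcacaaccaatcttccagc
WWY_Q0091: gcaaccaataggttgtggcg

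Levels are given in TPM, the authors' values scaled for gene length and to the same total in each library, so the depth of a library is unknown. The *pmk-1* transcript itself was at 13.7, 13.97 and 12.7 TPM in *pmk-1(D327E)*, 11.5, 10.7 and 11.8 TPM in *pmk-1(-)* and 14.3, 14.1 and 15.3 TPM in wild type. The null libraries were below the wild-type ones, and since a whole-gene level can include transcript outside a lesion, it is a weak check of that label. *daf-16* was between 6.12 and 7.78 TPM in the 6 *daf-16(mgDf50)* libraries, between 55.0 and 61.8 TPM in the 6 *daf-16(m26)* libraries and between 41.5 and 47.4 TPM in the other 9, so the libraries labelled with the deletion were low and the splice site allele was not checked by its level. The labels give *daf-16(mgDf50);pmk-1(D327E)* the strain name that the strain list gives to *daf-16(m26);pmk-1(D327E)*, and its *daf-16* levels of 7.26 and 7.78 TPM were those of the deletion. Yolk, oocyte, intestine, epidermis, muscle, neuron and sperm markers were all above 0. In whole worms, fewer cells of a type and less RNA per cell cannot be told apart. Sperm genes of the *msp* family summed to 3126, 2515 and 5123 TPM in *pmk-1(D327E)*, 6708, 1487 and 5059.8 TPM in *pmk-1(-)* and 3339.6, 1453 and 5491 TPM in wild type. Library 2 of *pmk-1(-)* and of wild type thus stood low in sperm transcripts, and counts without both are given beside the results.

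The *clec* family was dominated by few members. Averaged over the 21 libraries, 6 of the 223 genes stood at 100 TPM or above, 29 at 10 to 100 TPM, 44 at 1 to 10 TPM and 144 below 1 TPM. *clec-87*, whose product is known as a chondroitin proteoglycan, held 32.6% of the summed mean of 3675 TPM, and the first 10 members held 76.3%. These 10 were *clec-87* (1199 TPM), *clec-63* (349.9), *clec-88* (337), *clec-91* (211), *clec-1* (198), *clec-50* (192), *clec-150* (96.3), *clec-83* (89.96), *clec-47* (70.7) and *clec-48* (61.3). The sum over the family was 3838, 3679 and 4035 TPM in *pmk-1(D327E)*, 3058, 3410 and 3287 TPM in *pmk-1(-)* and 3611, 3567 and 3819 TPM in wild type. Every *pmk-1(-)* library was below every library of the other 2 genotypes in this sum. Neither *clec-87* nor *clec-88* differed in that way, since *clec-87* was at 1291, 1351 and 1109.9 TPM in *pmk-1(D327E)*, 730.4, 1517 and 1155 TPM in *pmk-1(-)* and 1339.8, 1433 and 1101 TPM in wild type. The separation of the sums was nonetheless lost without *clec-87*. The rest of the family summed to 2547, 2327.5 and 2925 TPM in *pmk-1(D327E)* and 2327.9, 1893 and 2132 TPM in *pmk-1(-)*. In wild type it summed to 2272, 2134 and 2718 TPM, so the null libraries overlapped the others. *clec-63*, the second most abundant member, was at 460.1, 331 and 617 TPM in *pmk-1(D327E)*, 254, 104.4 and 164 TPM in *pmk-1(-)* and 284, 207 and 444 TPM in wild type. The reads of the *clec-87* row may include some of *iars-2*, which overlaps it on the opposite strand, because the strand setting of the counting is not given in the sources used here.

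**Figure D1:**
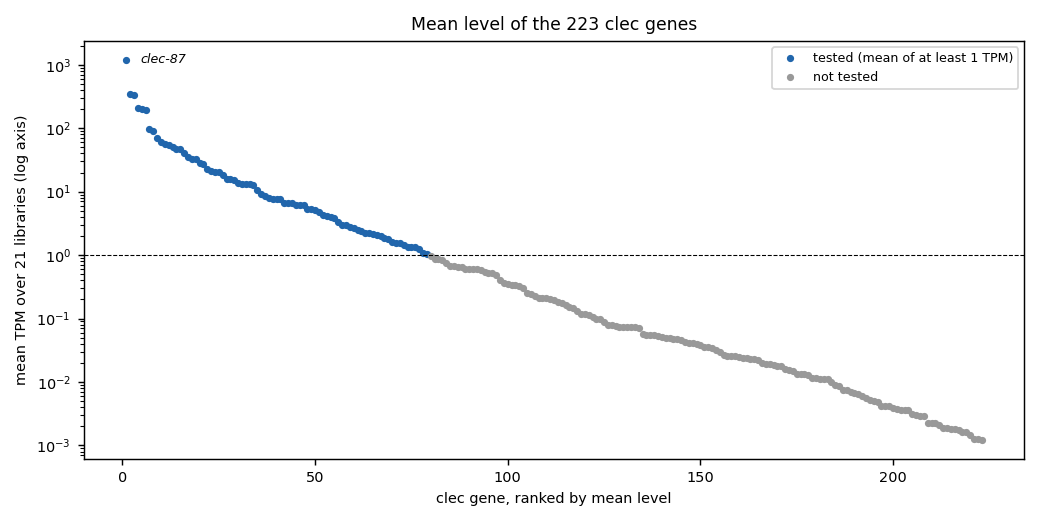
Mean TPM over the 21 libraries (log axis) of each of the 223 *clec* genes, ranked from the highest. Blue points are the 79 tested members with a mean of at least 1 TPM and grey points the 144 others, and *clec-87* stands above the rest at 1199 TPM.

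The tests covered the 79 members with a mean of at least 1 TPM, 35.4% of the family, among 12843 tested genes. Differences are on the scale of log2(TPM + 1), which understates changes of genes near or under 1 TPM. limma was fitted to all 9 genotypes together, p-values were adjusted by Benjamini-Hochberg over all genes tested, and called genes are those whose adjusted p was under 0.1.

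Loss of PMK-1 lowered 5 *clec* transcripts and raised none past the threshold. *clec-41*, *clec-65*, *clec-66*, *clec-85* and *clec-223* fell in *pmk-1(-)* worms against wild type, which is 5 of 79 members (6.33%) where 0.631% of all tested genes were called in either direction and 0.537% were called lower. The median over the 79 members was 0.08 on the log2 scale, beside -0.05 over all genes, so the family as a whole was not shifted downward. Under an unadjusted p of 0.05 there were 20 members, 25.3% of those tested, beside 4.65% of all genes. In the same comparison 29 of 29 tested *msp* genes had positive values (median 0.30) and 8 of 8 oocyte and eggshell markers negative ones (-0.27), with 0 called. Values were also positive for 3 of 3 muscle (0.39) and 6 of 6 intestine markers (0.06) and negative for 6 of 6 yolk genes (-0.26). Epidermis and neuron markers were mixed, with 2 of 4 positive in each, and 0 of these markers were called.

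*clec-85*, a known PMK-1-dependent immunity gene, was at 4.31, 2.49 and 3.86 TPM in *pmk-1(-)* against 20.2, 18.2 and 31.5 TPM in wild type. The highest null library was thus far below the lowest wild-type library, and the log2 difference was -2.40 (SE 0.24, adjusted p = 8.37e-05). *clec-223* was at 1.65, 1.66 and 0.979 TPM in *pmk-1(-)* against 12.6, 17.1 and 9.33 TPM in wild type, with no overlap between the groups. Its log2 difference was -2.502 (SE 0.24, adjusted p = 8.04e-05), the largest fall of the tested members on the log2(TPM + 1) scale, which understates that of *clec-67* given below. *clec-65* was at 24.6, 19.1 and 19.9 TPM in *pmk-1(-)* against 42.7, 41.5 and 55.4 TPM in wild type, a log2 difference of -1.09 (SE 0.14, adjusted p = 0.000986). Its libraries were close together in the null mutant, where the mean was 21.2 ± 3.00 TPM (SD, n = 3), against 46.5 ± 7.67 TPM (SD, n = 3) in wild type. *clec-66*, the neighbour of *clec-65*, was at 5.73, 2.66 and 2.81 TPM in *pmk-1(-)* against 10.7, 7.81 and 15.4 TPM in wild type, a log2 difference of -1.39 (SE 0.30, adjusted p = 0.0591). *clec-41* was at 26.4, 13.5 and 17.4 TPM in *pmk-1(-)* against 40.6, 33.3 and 60.7 TPM in wild type, a log2 difference of -1.20 (SE 0.24, adjusted p = 0.0419). In all of these 5 genes every null library was below every wild-type library, which held for 8 members and for 3.61% of all genes.

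The other members with large differences did not pass the test. *clec-67* was all but absent from the null mutant, at 0.0180, 0 and 0.0188 TPM in *pmk-1(-)* against 1.119, 0.767 and 3.17 TPM in wild type, and 1 null library was listed at 0. Its log2 difference was -1.30 (SE 0.46, adjusted p = 0.635), and with a pseudocount of 0.1 in place of 1 it was -3.76 (adjusted p = 0.00412). *clec-265* was at 9.41, 3.40 and 2.70 TPM in *pmk-1(-)* against 14.7, 11.5 and 23.0 TPM in wild type, with no overlap, and missed the threshold at -1.60 (SE 0.37, adjusted p = 0.101). *clec-47* was at 40.9, 6.88 and 20.0 TPM in *pmk-1(-)* against 61.8, 36.4 and 131 TPM in wild type, and its groups overlapped, with a log2 difference of -1.82 (SE 0.59, adjusted p = 0.488). *clec-4* was at 0.771, 0.274 and 0.166 TPM in *pmk-1(-)* against 1.74, 0.955 and 3.44 TPM in wild type, a log2 difference of -1.06 (SE 0.32, adjusted p = 0.362). *clec-62* and *clec-63* had log2 differences of -0.82 and -0.86, with adjusted p of 0.563 and 0.746. In the other direction, *clec-52* and *clec-80* had the largest positive values, 0.96 and 0.83 on the log2 scale, with adjusted p of 0.655 and 0.12. In all, 7 members lay higher in every null library than in every wild-type library, where this held for 2.48% of all genes.

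The labels number the replicates and state no pairing, and same-numbered *pmk-1(-)* and wild-type libraries were taken as pairs only from their correlated deviations. With the number as a block 9 members were called, the same 5 with *clec-47* and *clec-265* lower and *clec-80* and *clec-205* higher, where 1.67% of all genes were called. *clec-65*, *clec-85* and *clec-223* stayed called whichever library was left out, whereas *clec-66* was lost without *pmk-1(-)* library 2 or 3 or wild-type library 1 or 3 and *clec-41* without *pmk-1(-)* library 3 or wild-type library 1 or 3. The count was 8 without *pmk-1(-)* library 1 or 2 and 3 without *pmk-1(-)* library 3 or wild-type library 1 or 3. Without library 2 of both genotypes 6 members were called, *clec-66* was not (adjusted p = 0.111) and *clec-52* and *clec-80* were higher. A fit of these 2 genotypes alone kept 2 of the 5, *clec-85* and *clec-223*.

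**Figure D2:**
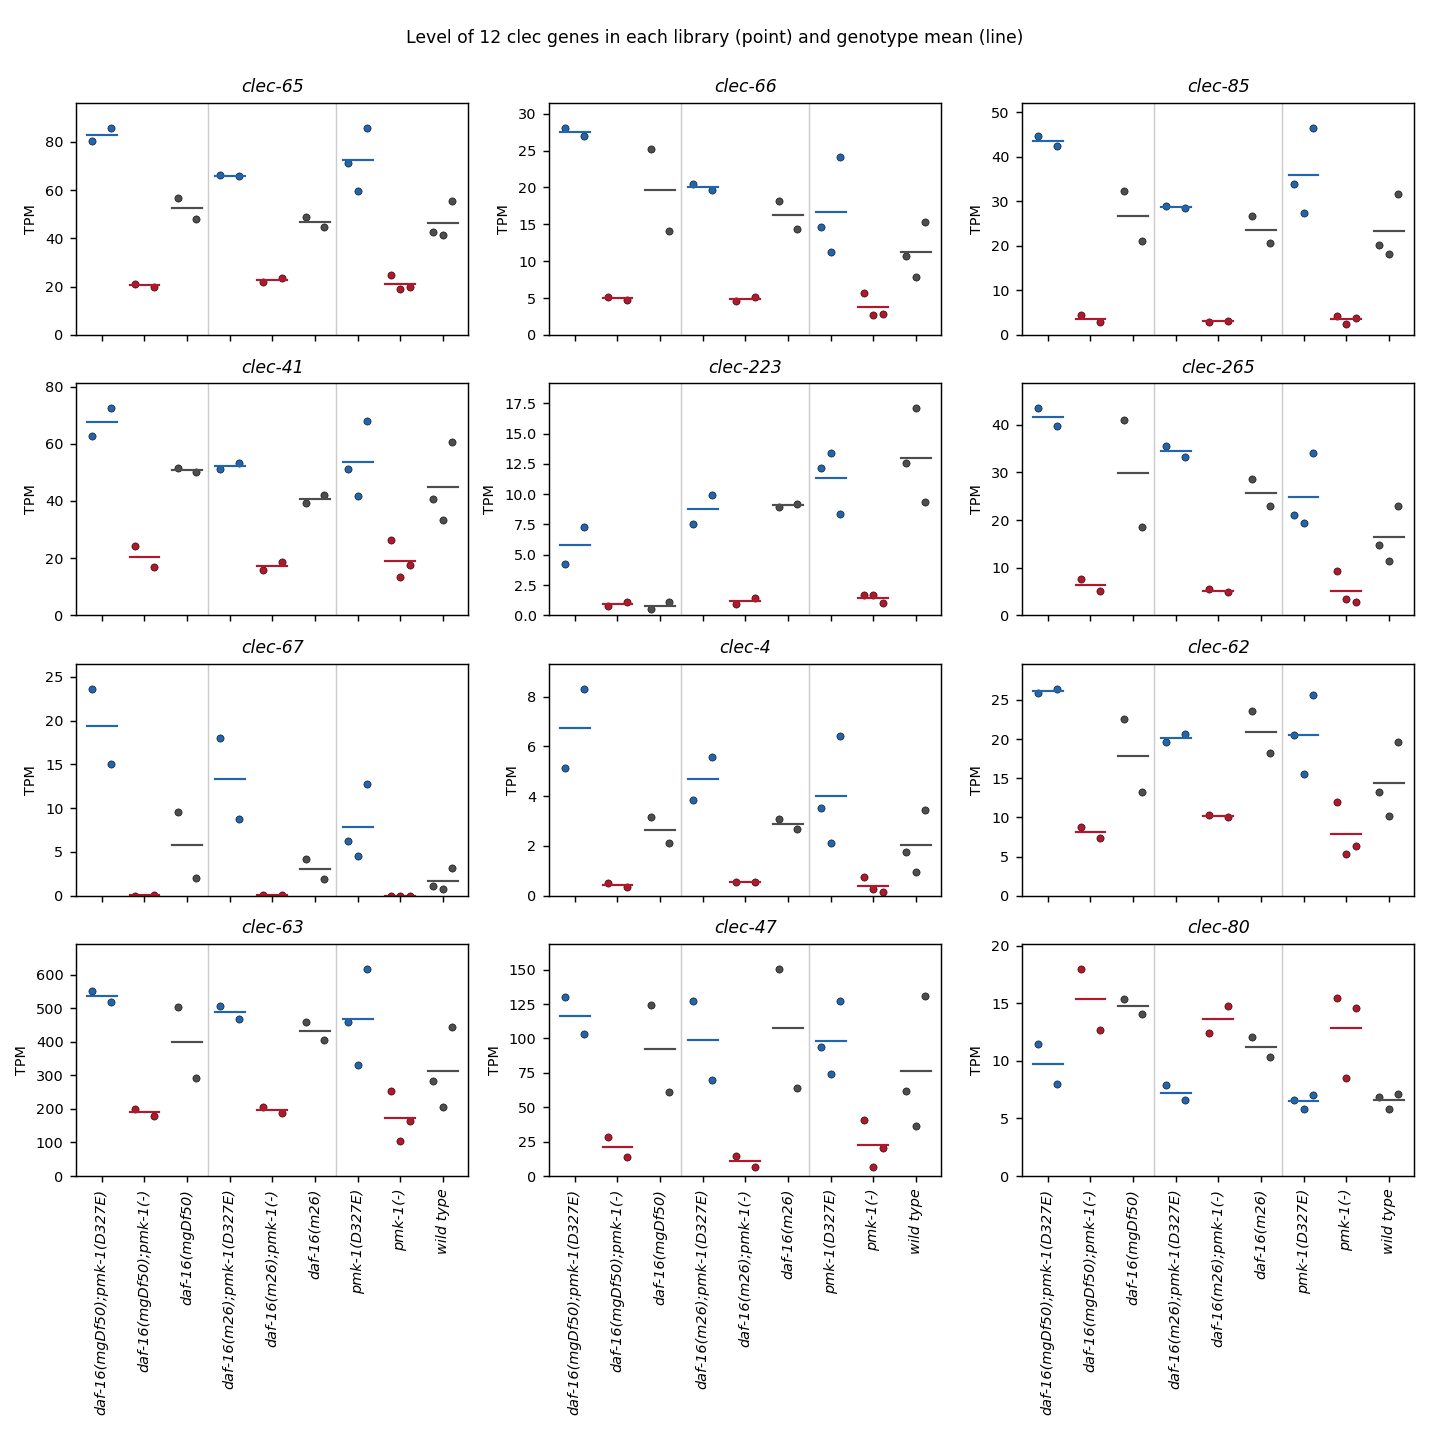
TPM of 12 *clec* genes (1 panel each, linear axis from 0) in the libraries of the 9 genotypes. Points are libraries and lines genotype means, with the *pmk-1(D327E)* strains in blue, the *pmk-1(-)* strains in red and the strains with wild-type *pmk-1* in grey. In each of *clec-65*, *clec-66*, *clec-85*, *clec-41*, *clec-67* and *clec-4* the 7 red points lie below the 14 others. In *clec-223* the grey *daf-16(mgDf50)* points lie with the red ones. In *clec-80* most red points and the grey *daf-16* mutant points are high, with some overlap with the blue points.

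In the fit without a replicate block or covariate, the caspase-resistant allele by itself changed no *clec* transcript past the threshold. Against wild type, 0 of 79 members were called by limma in *pmk-1(D327E)*, where 0.0779% of all genes were called. With the replicate number as a block *clec-65* and *clec-67* were called higher, beside 0.202% of all genes called. With the mean *msp* level as a covariate *clec-65* was called higher, beside 0.179% of all genes called. Under an unadjusted p of 0.05 there were 4 members (5.06% of those tested, beside 1.03% of all genes), *clec-4*, *clec-65*, *clec-67* and *clec-85*, all of them with positive differences. *clec-67* was at 6.29, 4.51 and 12.8 TPM in *pmk-1(D327E)* against 1.119, 0.767 and 3.17 TPM in wild type, with no overlap, a log2 difference of 1.72 (SE 0.46, adjusted p = 0.849). *clec-65* was at 71.4, 59.8 and 85.8 TPM in *pmk-1(D327E)* against 42.7, 41.5 and 55.4 TPM in wild type, also without overlap, a log2 difference of 0.62 (SE 0.14, adjusted p = 0.387). These 2 genes were the only members above every wild-type library in every mutant library, where 1.78% of all genes were. *clec-85* was at 33.8, 27.4 and 46.4 TPM in *pmk-1(D327E)* against 20.2, 18.2 and 31.5 TPM in wild type, and the groups overlapped. *clec-4* was at 3.53, 2.13 and 6.40 TPM in *pmk-1(D327E)* against 1.74, 0.955 and 3.44 TPM in wild type, again with overlap. The next largest log2 differences were those of *clec-63* (0.61), *clec-265* (0.58), *clec-47* (0.52), *clec-62* (0.51), *clec-66* (0.50) and *clec-3* (0.47), each with an adjusted p of 1. *clec-223* did not share this direction, with a log2 difference of -0.17. The median of the 79 members was 0.03, beside -0.03 for all genes.

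Set directly against each other, the *pmk-1* mutants differed in 11 members, 10 of them higher in *pmk-1(D327E)* and 1 lower. These are 13.9% of the tested members, beside 1.08% of all genes, and 0.833% of all genes were called higher. The 10 were *clec-4*, *clec-41*, *clec-62*, *clec-63*, *clec-65*, *clec-66*, *clec-67*, *clec-85*, *clec-223* and *clec-265*. This comparison shares its libraries with the 2 comparisons against wild type and is no independent support for them. *clec-67* differed by 3.02 (SE 0.46, adjusted p = 0.00252) on the log2 scale, with 7.87 ± 4.36 TPM in *pmk-1(D327E)* against 0.0123 ± 0.0106 TPM in *pmk-1(-)* (SD, n = 3 each). *clec-85* differed by 3.01 (SE 0.24, adjusted p = 3.22e-06), with 35.9 ± 9.69 TPM in *pmk-1(D327E)* against 3.55 ± 0.949 TPM in *pmk-1(-)* (SD, n = 3 each). *clec-223* followed at 2.33 (SE 0.24, adjusted p = 5.81e-05). In these 3 genes the lowest *pmk-1(D327E)* library was several times the highest *pmk-1(-)* library.

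The other 7 genes that rose had log2 differences from 1.33 (*clec-62*) to 2.18 (*clec-265*). *clec-265* was at 21, 19.3 and 34.1 TPM in *pmk-1(D327E)* against 9.41, 3.40 and 2.70 TPM in *pmk-1(-)*, with an adjusted p of 0.00629. *clec-63* was the most abundant of them, at 460.1, 331 and 617 TPM in *pmk-1(D327E)* against 254, 104.4 and 164 TPM in *pmk-1(-)*, with a log2 difference of 1.47 (SE 0.32, adjusted p = 0.0443). *clec-62* was at 20.5, 15.5 and 25.6 TPM in *pmk-1(D327E)* against 11.96, 5.28 and 6.28 TPM in *pmk-1(-)*, an adjusted p of 0.0354. *clec-80* was the member that fell, at 6.60, 5.84 and 7.03 TPM in *pmk-1(D327E)* against 15.5, 8.52 and 14.6 TPM in *pmk-1(-)*, a log2 difference of -0.85 (SE 0.20, adjusted p = 0.0755). *clec-47* had one of the largest differences, 2.35 (SE 0.59, adjusted p = 0.114), and missed the threshold with 94.1, 74.3 and 127 TPM in *pmk-1(D327E)* against 40.9, 6.88 and 20.0 TPM in *pmk-1(-)*. The calls of *clec-62* and *clec-63* were lost without *pmk-1(-)* library 2 or 3 or *pmk-1(D327E)* library 1 or 3, and that of *clec-80* without any library but *pmk-1(-)* library 2. The 8 others stayed called without any 1 library, a fit of these 2 genotypes alone called 4 members, *clec-65*, *clec-67*, *clec-85* and *clec-223*, and without library 2 of both *pmk-1(-)* and wild type 15 were called, the 11 among them.

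The difference between the *pmk-1* mutants was also present in both *daf-16* mutant backgrounds. In the *daf-16(mgDf50)* background 9 members were higher with *pmk-1(D327E)* than with *pmk-1(-)* and 0 were lower, beside 1.26% of all genes called and 1.07% called higher. In the *daf-16(m26)* background it was again 9 members higher and 0 lower, beside 0.747% of all genes called and 0.607% called higher. Members under an unadjusted p of 0.05 numbered 19 and 18, which is 24.1% and 22.8% of those tested, beside 4.98% and 3.18% of all genes. The libraries of the 3 backgrounds are separate, and 8 members were called higher in each of them, where 0.506% of all genes were. They were *clec-4*, *clec-41*, *clec-65*, *clec-66*, *clec-67*, *clec-85*, *clec-223* and *clec-265*. These are the 8 *clec* genes that the study itself lists as *pmk-1* dependent from these samples, so the list gives no independent evidence of direction.

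*clec-67* was at 23.6 and 15.1 TPM with *pmk-1(D327E)* against 0.0196 and 0.0463 TPM with *pmk-1(-)* in *daf-16(mgDf50)* worms, a log2 difference of 4.27 (SE 0.56, adjusted p = 0.000622). In the other allele it was at 18 and 8.77 TPM with *pmk-1(D327E)* against 0.0407 and 0.0233 TPM with *pmk-1(-)*, a log2 difference of 3.72 (SE 0.56, adjusted p = 0.00351). The level of *clec-67* was therefore under 0.05 TPM in all 7 libraries with *pmk-1(-)*, whatever the *daf-16* allele. *clec-85* was at 44.7 and 42.4 TPM with *pmk-1(D327E)* against 4.40 and 2.93 TPM with *pmk-1(-)* in *daf-16(mgDf50)* worms, a log2 difference of 3.27 (SE 0.30, adjusted p = 1.41e-05). It was at 29.0 and 28.4 TPM with *pmk-1(D327E)* against 2.95 and 3.22 TPM with *pmk-1(-)* in *daf-16(m26)* worms, a log2 difference of 2.86 (SE 0.30, adjusted p = 8.32e-05). In *clec-85* the null libraries of all backgrounds lay between 2.49 and 4.40 TPM. *clec-65* differed by 1.96 (SE 0.17, adjusted p = 1.41e-05) in *daf-16(mgDf50)* and by 1.497 (SE 0.17, adjusted p = 0.00028) in *daf-16(m26)* worms. *clec-62* was called in *daf-16(mgDf50)* worms, at 1.58 (SE 0.34, adjusted p = 0.0375), and not in *daf-16(m26)* worms, at 0.93 (SE 0.34, adjusted p = 0.908). *clec-47* was the reverse, called in *daf-16(m26)* worms at 3.13 (SE 0.73, adjusted p = 0.0921) and not in *daf-16(mgDf50)* worms at 2.495 (SE 0.73, adjusted p = 0.23). *clec-63* passed in neither, with log2 differences of 1.497 and 1.30. Whether these differences vary with the background was not tested for the direct comparison.

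With 2 libraries a genotype these calls rested on few samples. In the *daf-16(m26)* background the count was 4 without any 1 of the 4 libraries, with *clec-65*, *clec-67*, *clec-85* and *clec-223* kept each time and *clec-4*, *clec-41*, *clec-47*, *clec-66* and *clec-265* lost. In the *daf-16(mgDf50)* background it was 6 without *daf-16(mgDf50);pmk-1(D327E)* library 2 or *daf-16(mgDf50);pmk-1(-)* library 2.

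**Figure D3:**
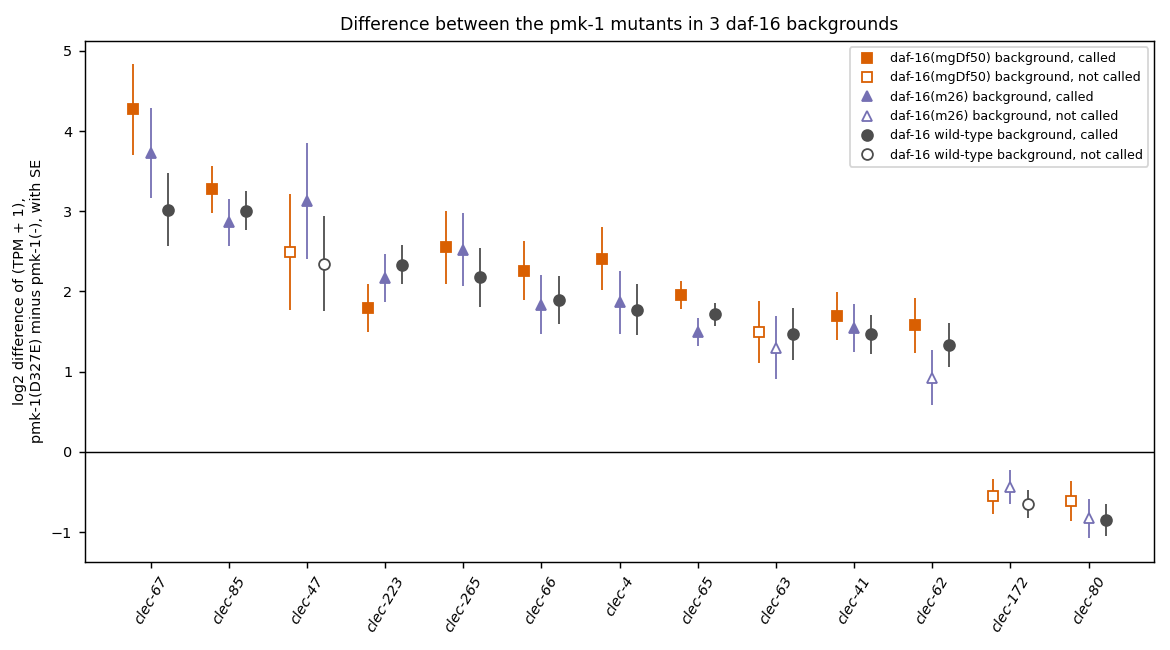
Log2 difference of (TPM + 1) between the *pmk-1(D327E)* and *pmk-1(-)* strains, with its SE, for the 13 *clec* genes called in at least 1 comparison, in the *daf-16(mgDf50)*, *daf-16(m26)* and wild-type *daf-16* backgrounds. Filled symbols passed an adjusted p of 0.1. The values of *clec-67* are the highest in the 3 backgrounds (4.27, 3.72 and 3.02), and *clec-172* and *clec-80* lie below 0.

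Against its *daf-16* single mutant, loss of PMK-1 lowered 3 members in one background and 4 in the other. In *daf-16(mgDf50);pmk-1(-)* against *daf-16(mgDf50)*, *clec-65*, *clec-66* and *clec-85* fell and 0 members rose, beside 0.405% of all genes called. In *daf-16(m26);pmk-1(-)* against *daf-16(m26)*, *clec-65*, *clec-85*, *clec-223* and *clec-265* fell and *clec-172* rose, beside 0.358% of all genes called. Members under an unadjusted p of 0.05 numbered 18 in each (22.8% of those tested), beside 3.35% and 3.18% of all genes. A fit of *daf-16(mgDf50);pmk-1(-)* and *daf-16(mgDf50)* alone called 0 members, and single libraries left out gave 2 to 5, with 5 without *daf-16(mgDf50)* library 2. *clec-65* and *clec-85* were the 2 members called lower with *pmk-1(-)* in all 3 backgrounds, as were 0.218% of all genes. *clec-85* was at 4.40 and 2.93 TPM in *daf-16(mgDf50);pmk-1(-)* against 32.2 and 21 TPM in *daf-16(mgDf50)*, a log2 difference of -2.55 (SE 0.30, adjusted p = 0.00055). It was at 2.95 and 3.22 TPM in *daf-16(m26);pmk-1(-)* against 26.6 and 20.7 TPM in *daf-16(m26)*, a log2 difference of -2.58 (SE 0.30, adjusted p = 0.000713). The groups did not overlap in either background. The interactions of *pmk-1(-)* with the *daf-16* alleles were -0.15 (SE 0.38, adjusted p = 0.958) for mgDf50 and -0.18 (SE 0.38, adjusted p = 0.922) for m26. *clec-265* was at 5.58 and 4.79 TPM in *daf-16(m26);pmk-1(-)* against 28.5 and 23.0 TPM in *daf-16(m26)*, a log2 difference of -2.11 (SE 0.45, adjusted p = 0.0934). *clec-172* was at 2.06 and 1.98 TPM in *daf-16(m26);pmk-1(-)* against 0.492 and 0.521 TPM in *daf-16(m26)*, a log2 difference of 1.00 (SE 0.21, adjusted p = 0.0925). *clec-67* did not pass either test, at -2.45 (SE 0.56, adjusted p = 0.135) in *daf-16(mgDf50)* and -1.91 (SE 0.56, adjusted p = 0.457) in *daf-16(m26)* worms. *clec-66* was lost in *daf-16(mgDf50)* worms without *daf-16(mgDf50)* library 1 or either library of the double mutant. In *daf-16(m26)* worms *clec-172* and *clec-265* were lost without any 1 library, and *clec-65* without any but *daf-16(m26)* library 2, so that 2 or 3 of the 5 remained.

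In the fit without a covariate, *pmk-1(D327E)* on top of a *daf-16* mutation moved at most 1 member past the threshold. In *daf-16(mgDf50);pmk-1(D327E)* against *daf-16(mgDf50)*, *clec-223* rose, beside 0.202% of all genes called, and the unadjusted p was under 0.05 for 7 members and 1.72% of all genes. A fit of these 2 genotypes alone called 0. In *daf-16(m26);pmk-1(D327E)* against *daf-16(m26)*, 0 members were called by limma, beside 0.0467% of all genes, and the unadjusted p was under 0.05 for 5 members and 1.11% of all genes. *clec-67* was at 23.6 and 15.1 TPM in *daf-16(mgDf50);pmk-1(D327E)* against 9.61 and 2.01 TPM in *daf-16(mgDf50)*, a log2 difference of 1.82 (SE 0.56, adjusted p = 1). It was at 18 and 8.77 TPM in *daf-16(m26);pmk-1(D327E)* against 4.21 and 1.88 TPM in *daf-16(m26)*, a log2 difference of 1.81 (SE 0.56, adjusted p = 1). These groups did not overlap, nor did those of *clec-65*, whose log2 differences were 0.66 and 0.49 with adjusted p of 0.561 and 1. With 2 libraries against 2, 17 members lay above their *daf-16* single mutant in every library in each comparison, as did 10.4% of all genes in the first and 6.67% in the second.

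In the fit without a replicate block, the *daf-16* mutations alone changed few *clec* transcripts past the threshold. In *daf-16(mgDf50)* against wild type, *clec-80* rose and *clec-223* fell, 2 of 79 members, beside 0.366% of all genes called. In *daf-16(m26)* against wild type, 0 members were called by limma, beside 0.195% of all genes. Under an unadjusted p of 0.05 there were 16 and 10 members, 20.3% and 12.7% of those tested, beside 10.2% and 7.23% of all genes. These counts turned on the fit. With the replicate number as a block 29 members were called in *daf-16(mgDf50)* and 28 in *daf-16(m26)*, of which 23 and 22 were higher, when 34.7% and 23.2% of all genes were called. For *daf-16(mgDf50)* the count was 15 with the *msp* covariate (9.37% of all genes), 0 in a fit of *daf-16(mgDf50)* and wild type alone, which also lost *clec-223*, and 1 to 4 without single libraries, with 4 without *daf-16(mgDf50)* library 2. *clec-80* was at 15.4 and 14.04 TPM in *daf-16(mgDf50)* against 6.83, 5.84 and 7.08 TPM in wild type, a log2 difference of 1.05 (SE 0.22, adjusted p = 0.0916), and this call was lost without any 1 of the 5 libraries. In *daf-16(m26)* worms *clec-80* was at 12.1 and 10.3 TPM, above every wild-type library, with a log2 difference of 0.69 (SE 0.22, adjusted p = 0.502). The largest positive value in *daf-16(mgDf50)* was that of *clec-3*, 1.41 (SE 0.42, adjusted p = 0.403), and in *daf-16(m26)* that of *clec-190*, 1.15 (SE 0.52, adjusted p = 0.604). *clec-190* was between 17.0 and 33.0 TPM in the 6 *daf-16(m26)* libraries and between 1.92 and 15.9 TPM in the 15 others. This gene was named after its values were seen, and the share of all genes separated in this way was not computed. The medians of the 79 members were 0.25 in *daf-16(mgDf50)* and 0.24 in *daf-16(m26)*, beside -0.01 and -0.04 for all genes. Muscle markers summed to 923 and 736 TPM in *daf-16(mgDf50)*, 797 and 919 TPM in *daf-16(m26)* and 526, 339 and 676 TPM in wild type, and all 3 had positive differences in both comparisons with 0 called. In *daf-16(mgDf50)* the differences were also positive for 24 of 29 *msp* genes (median 0.23), 5 of 6 intestine markers (0.43), 4 of 4 epidermis markers (0.36) and 12 of 12 galectin genes (0.35), and negative for 8 of 8 oocyte and eggshell markers (-0.40). In *daf-16(m26)* they were positive for 29 of 29 *msp* genes (median 0.74), 5 of 6 intestine markers (0.30), 4 of 4 epidermis markers (0.85) and 9 of 12 galectin genes (0.22), and negative for 8 of 8 oocyte and eggshell markers (-0.26). None of these genes was called in either comparison. The part of any of these groups in the medians was not tested.

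*clec-223* was the only member with a called interaction between a *pmk-1* mutation and a *daf-16* allele. It was at 4.25 and 7.33 TPM in *daf-16(mgDf50);pmk-1(D327E)*, 0.761 and 1.08 TPM in *daf-16(mgDf50);pmk-1(-)* and 0.496 and 1.08 TPM in *daf-16(mgDf50)*. In the second allele it was at 7.55 and 9.97 TPM in *daf-16(m26);pmk-1(D327E)*, 0.939 and 1.40 TPM in *daf-16(m26);pmk-1(-)* and 8.97 and 9.19 TPM in *daf-16(m26)*. With wild-type *daf-16* it was at 12.2, 13.4 and 8.39 TPM in *pmk-1(D327E)*, 1.65, 1.66 and 0.979 TPM in *pmk-1(-)* and 12.6, 17.1 and 9.33 TPM in wild type. The level in the *daf-16* deletion alone thus lay near that of the *pmk-1* null mutant, with a log2 difference from wild type of -2.95 (SE 0.27, adjusted p = 5.6e-05), while *daf-16(m26)* differed from wild type by -0.44 (SE 0.27, adjusted p = 0.604). Loss of PMK-1 on top of the deletion gave 0.12 (SE 0.30, adjusted p = 1), and *pmk-1(D327E)* on top of it raised the gene by 1.91 (SE 0.30, adjusted p = 0.0136). At the 0.496 and 1.08 TPM of the deletion alone, a further fall could hardly be measured on this scale, which limits the *pmk-1(-)* interaction. The interaction with mgDf50 was 2.62 (SE 0.39, adjusted p = 0.0146) for *pmk-1(-)* and 2.08 (SE 0.39, adjusted p = 0.0754) for *pmk-1(D327E)*. These interactions were called for 0.0779% and 0.109% of all genes. With m26 the interactions were 0.28 (adjusted p = 0.894) and 0.11 (adjusted p = 1), and 0 of 79 members were called by limma in either, beside 0.0156% and 0.0234% of all genes. Members under an unadjusted p of 0.05 numbered 6 and 2 for the interactions of *pmk-1(-)* and *pmk-1(D327E)* with mgDf50, and 0 and 1 for those with m26, beside 1.27%, 1.1%, 1.32% and 0.693% of all genes. The call for *pmk-1(-)* was lost without *daf-16(mgDf50)* library 1 (adjusted p = 0.165) or *daf-16(mgDf50);pmk-1(-)* library 2 (adjusted p = 0.163). The call for *pmk-1(D327E)* was lost without most single libraries, with adjusted p up to 0.871 without *daf-16(mgDf50);pmk-1(D327E)* library 2, and so was the rise of *clec-223* over *daf-16(mgDf50)* without that library or *daf-16(mgDf50)* library 1.

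**Figure D4:**
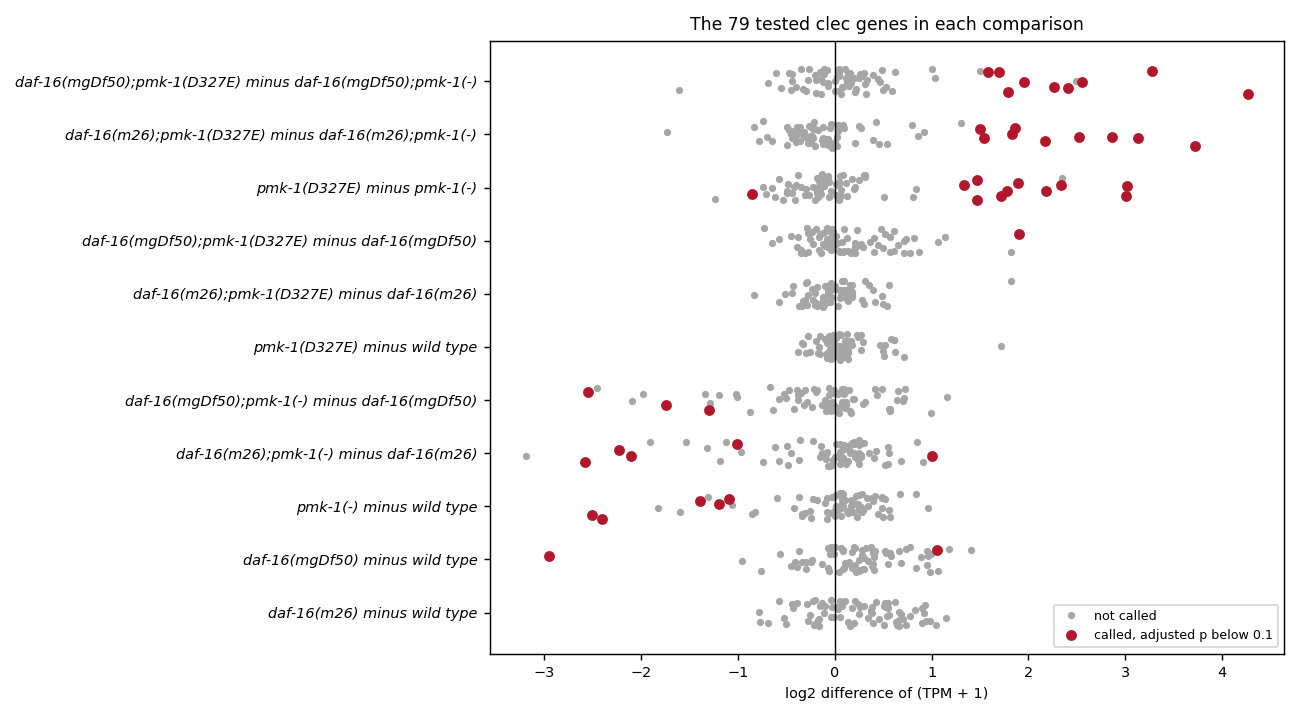
Log2 difference of (TPM + 1) of the 79 tested *clec* genes (points, spread vertically for legibility) in each of 11 comparisons between genotypes. Red points were called at an adjusted p below 0.1. The direct comparisons of the *pmk-1* mutants (3 top rows) hold 9, 9 and 11 called members, all but 1 of them on the right, while most of the family is near 0 in each row.

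Across the backgrounds, 13 of the 79 members were called in at least 1 of the 11 comparisons, as were 2.07% of all genes, and 66 in none of the 15 contrasts. Taking all backgrounds together as a description, 7 members were lower in every one of the 7 *pmk-1(-)* libraries than in any of the 14 others, where this held for 0.592% of all genes. They were *clec-4*, *clec-41*, *clec-65*, *clec-66*, *clec-67*, *clec-85* and *clec-265*. *clec-65* ranged from 19.1 to 24.6 TPM in the 7 null libraries, while the lowest of the other 14 was 41.5 TPM. *clec-265* ranged from 2.70 to 9.41 TPM in the null libraries against 11.5 TPM for the lowest other. Only *clec-172* was higher in every null library, at 1.82 to 2.84 TPM against 0.49 to 1.77 TPM in the others, and 0.0234% of all genes did so. The *clec-172* row may include reads of *txt-4*, which overlaps it on the opposite strand.

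Other members had higher values in the *pmk-1(-)* strains. *clec-52* was at 11.8, 6.94 and 11.2 TPM in *pmk-1(D327E)*, 37.2, 12.2 and 31.4 TPM in *pmk-1(-)* and 12.99, 7.56 and 17.4 TPM in wild type, and *pmk-1(-)* library 2 was the exception among the null libraries. In the *daf-16* backgrounds *clec-52* was at 6.83 and 9.53 TPM with *pmk-1(D327E)* against 28.3 and 25.3 TPM with *pmk-1(-)* in *daf-16(mgDf50)* worms. It was at 11.1 and 10.1 TPM with *pmk-1(D327E)* against 37.6 and 37.5 TPM with *pmk-1(-)* in *daf-16(m26)* worms. Its log2 differences of -1.24, -1.61 and -1.74 between *pmk-1(D327E)* and *pmk-1(-)* in the wild-type, mgDf50 and m26 backgrounds had adjusted p of 0.184, 0.122 and 0.113, so none was called. *clec-52* was called higher in *pmk-1(-)* than in wild type without *pmk-1(-)* library 2, without library 2 of both genotypes and with the *msp* covariate. *clec-80* differed between *pmk-1(D327E)* and *pmk-1(-)* by -0.61 in *daf-16(mgDf50)* and -0.83 in *daf-16(m26)* worms on the log2 scale, neither past the threshold. *clec-205* had log2 differences of -0.49, -0.40 and -0.36 in the wild-type, mgDf50 and m26 backgrounds, with adjusted p of 0.139, 0.703 and 1.

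Many *clec* genes lie in runs along the chromosomes. Of the members, 78 were on chromosome V, 53 on IV, 45 on II, 29 on I, 14 on III and 3 on X, and *clec-81* was not named in the annotation used. Among the 216 members that could be placed in gene order, 126 lay in 41 runs of at least 2 members with at most 1 other coding gene between neighbours, and the longest run had 13. Of the 13 called members, 8 lay in these runs and 5, *clec-47*, *clec-80*, *clec-85*, *clec-172* and *clec-265*, in none. *clec-62*, *clec-63*, *clec-65* and *clec-66* were the tested members of 1 run of 5 on chromosome II, and all were called higher in *pmk-1(D327E)* than in *pmk-1(-)*, while the fifth, *clec-64*, was at 0.256 TPM or less in every library. *clec-67* stood at 1 end of a run of 11 on chromosome IV, whose other 4 tested members, *clec-71*, *clec-72*, *clec-73* and *clec-79*, were called in none of the comparisons. *clec-223* neighboured *clec-222*, *clec-41* neighboured *clec-225* and *clec-4* neighboured *clec-8*, and none of these 3 neighbours was called. How reads that match several genes were treated is not given in the sources used here, so the levels of close copies within a run are uncertain. *clec-85* overlaps *Y54G2A.49* on the opposite strand and *Y54G2A.40* on its own, and reads of these genes may be in its row.

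Members differed between libraries of 1 genotype more than most genes did. The median SD within genotypes was 0.33 on the log2 scale for the 79 members and 0.23 for all tested genes. The largest were *clec-266* (0.85), *clec-73* (0.85), *clec-123* (0.83), *clec-47* (0.80), *clec-117* (0.79), *clec-151* (0.77), *clec-79* (0.76) and *clec-222* (0.72). *clec-266* was at 1.64, 2.35 and 0.534 TPM in *pmk-1(D327E)*, 0.202, 6.87 and 0.986 TPM in *pmk-1(-)* and 1.116, 6.18 and 0.796 TPM in wild type, so library 2 of the null mutant and of wild type stood far above the rest. Library 1 was above library 2 in all 9 genotypes for 15 of the 79 members, among them *clec-47*, *clec-63*, *clec-73*, *clec-123*, *clec-151* and *clec-265*, and this held for 11.6% of all genes. It was below library 2 in all 9 for 8 members, *clec-87*, *clec-88*, *clec-91*, *clec-97*, *clec-190*, *clec-222*, *clec-223* and *clec-266*, where 21.5% of all genes did so. Markers were counted more loosely. Of 29 tested *msp* genes, 20 were higher in library 1 in 8 or 9 genotypes, as were 34 of the 79 members. All 8 oocyte and eggshell markers had library 1 higher in at most 1 genotype, and 4 of them in none. The shares of all genes at these looser counts were not computed. Oocyte and eggshell markers summed to 5562, 5511 and 4689 TPM in *pmk-1(D327E)*, 3311, 6302 and 4324 TPM in *pmk-1(-)* and 5313, 5904 and 4606 TPM in wild type. *clec-87* was at 730.4, 1517 and 1155 TPM in *pmk-1(-)*, with library 2 highest, as in that marker sum. Library 2 was also highest for both in wild type. In *pmk-1(D327E)* *clec-87* was highest in library 2 but the marker sum in library 1. With the mean *msp* level as a covariate, an alternative added after seeing the data, all calls above were kept and more members were called, 14 in place of 5 for *pmk-1(-)* against wild type and 19 in place of 11 for *pmk-1(D327E)* against *pmk-1(-)*, when 1.44% and 2.33% of all genes were called.

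**Figure D5:**
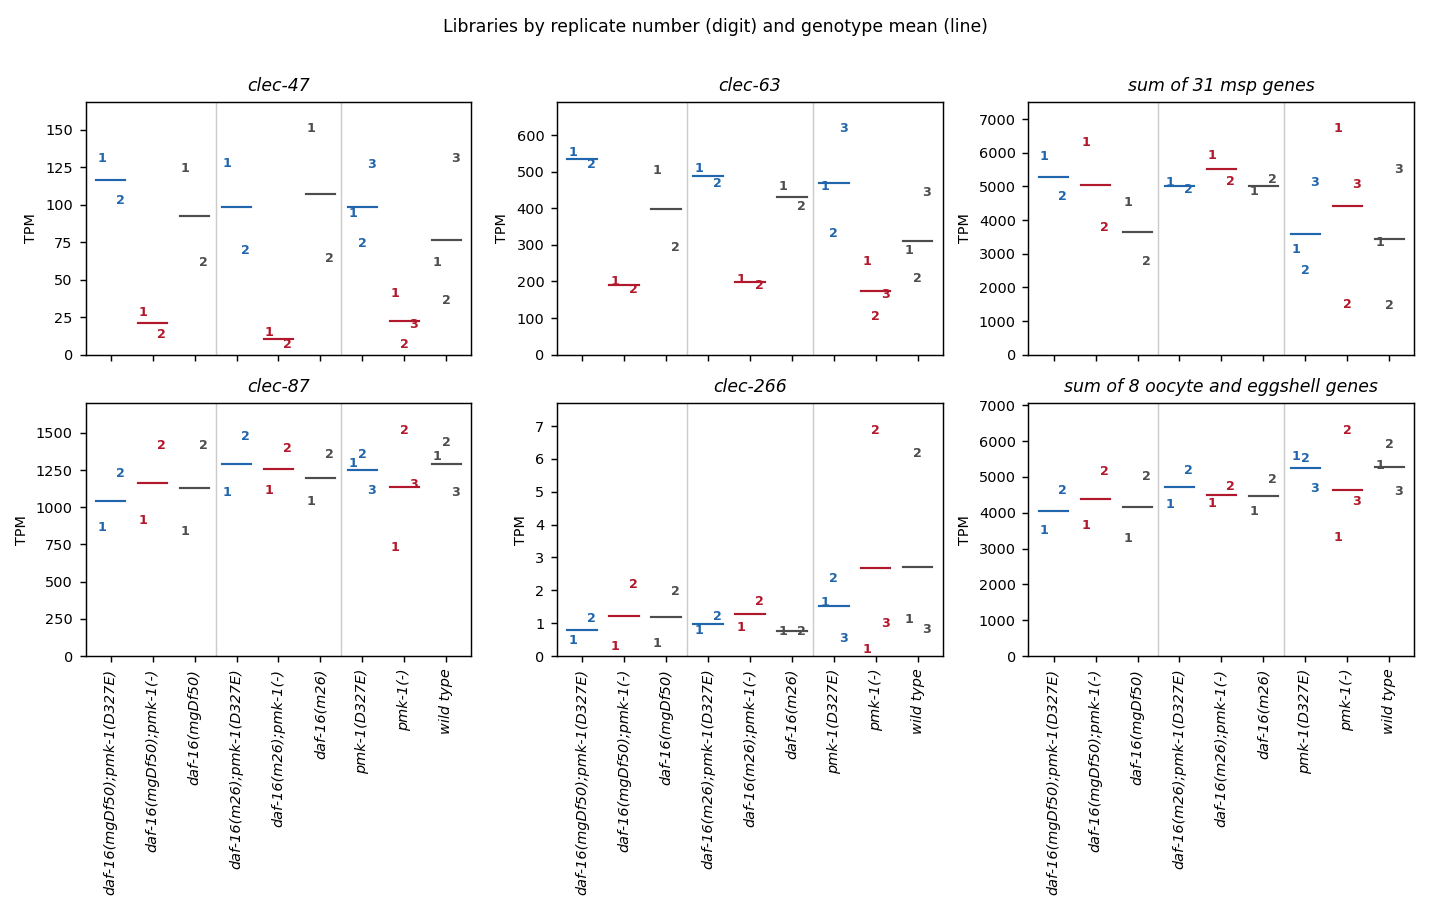
TPM of *clec-47*, *clec-63*, *clec-87* and *clec-266* and the summed TPM of 31 *msp* genes and of 8 oocyte and eggshell genes, in the libraries of the 9 genotypes (linear axes from 0). Digits are the replicate numbers and lines the genotype means. Library 1 lies above library 2 in every genotype for *clec-47* and *clec-63* and below it for *clec-87* and *clec-266*.

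Lists of related genes put these counts in context. Of 11 *clec* genes known to respond to bacterial pathogens, 8 were tested, and *clec-65*, *clec-66* and *clec-85* fell in *pmk-1(-)* against wild type, beside 0.537% of all genes called lower. The list median was -0.59 on the log2 scale, beside -0.05 for all genes. The same 3 and *clec-67* rose in *pmk-1(D327E)* against *pmk-1(-)*, beside 0.833% of all genes called higher. These genes are also on the study's own list from these samples. The pathogen list was chosen with earlier results of these data known, so it is no independent support. The other tested members of the list, *clec-49*, *clec-52*, *clec-71* and *clec-86*, were called in no comparison. *clec-39*, *clec-60* and *clec-70* were under 1 TPM on average, and *clec-60* never exceeded 0.984 TPM. Of 8 genes of the PMK-1 pathway (*tir-1*, *nsy-1*, *sek-1*, *pmk-1*, *vhp-1*, *atf-7*, *skn-1* and *ced-3*), 0 were called by limma in *pmk-1(-)* or *pmk-1(D327E)* against wild type or between them, beside 0.631%, 0.0779% and 1.08% of all genes. In these comparisons 3, 0 and 3 of the 8 had an unadjusted p under 0.05, beside 4.65%, 1.03% and 4.41% of all genes. Of 8 genes of the insulin pathway, only *daf-16* was called in the 5 comparisons among single mutants and wild type, lower in *daf-16(mgDf50)* against wild type by a log2 difference of -2.56 (adjusted p = 9.93e-10). Of 12 galectin genes, lectins of another fold named *lec*, 0 were called by limma in *pmk-1(-)* against wild type, beside 0.631% of all genes. An unadjusted p under 0.05 was found for 1 of the 12, beside 4.65% of all genes. *lec-3* was lower in *pmk-1(D327E)*, by -2.31 (adjusted p = 0.00546) against wild type and -2.76 (adjusted p = 0.000109) against *pmk-1(-)*.

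The 144 members under the filter were too low to test. Of these, 101 had a mean under 0.1 TPM, 65 had a median of 0 and 0 were at 0 in every library. The mean of some genotype reached 1 TPM in 10 of them, with *clec-184* the highest at 1.36 TPM. No comparison was made between genotypes for these members.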

How the data were processed

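mRNA-seq libraries of whole worms were grouped by genotype from the sample labels. The authors trimmed single-end reads with fastq-mcf, aligned them with STAR to ce10, removed duplicates with Picard 2.10, counted reads on RefSeq genes with featureCounts and deposited TPM values, which have the same sum in each library, so depth and its precision are unknown. The STAR version is 2.5.3a in the submitters' processing notes, and the strand setting is not given in the sources used here. The authors' 8 edgeR tables of mutants against wild type, with fold changes and p-values, were not used.

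Here log2(TPM + 1) of 12843 genes averaging 1 TPM or more was fitted with limma 3.58.1 (R 4.3.3, trend and robust) for 9 genotypes. The fit was run on simulated data with independent noise in each library, which could not test it against differences shared by replicate number. Comparisons were 11 pairs and 4 interactions, called at an adjusted p below 0.1. Members, lists and tests were chosen with earlier results of these data known. Named genes were those called, the study's list, the 10 largest differences of each *pmk-1* mutant from wild type, the 10 most abundant and the pathogen list, and others were named after their values were seen. Correlations of same-numbered deviations between *pmk-1(-)* and wild type were 0.196, 0.856 and 0.424, all above 0.1, so numbers were taken as pairs from the data alone. Gene order and chromosomes came from WBcel235, whose coordinates are not printed. Alternatives were other pseudocounts and filters, rescaled libraries, fits of the compared genotypes alone, a replicate block, no trend or robust estimation, an adjusted p below 0.05, single libraries left out and, added later, an *msp* covariate and both libraries 2 left out.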

Additional observations from a re-analysis of the deposited data

Results flagged for a closer look

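*clec-223* is given for a closer look because the effect of both *pmk-1* mutations on it differed between worms with the *daf-16(mgDf50)* deletion and worms with wild-type *daf-16*. The interaction was 2.62 on the log2 scale for *pmk-1(-)* (SE 0.39, adjusted p = 0.0146) and 2.08 for *pmk-1(D327E)* (SE 0.39, adjusted p = 0.0754), by limma over all tested genes. Both interactions share the *daf-16(mgDf50)* and wild-type libraries. The gene was already low in *daf-16(mgDf50)* alone, by a log2 difference of -2.95 from wild type. A further fall with *pmk-1(-)* could hardly be measured from there, which limits that interaction. Both calls were lost when only the compared genotypes were fitted (adjusted p = 0.227 for *pmk-1(-)* and 0.659 for *pmk-1(D327E)*). The call for *pmk-1(-)* was lost in 2 of 21 omissions of a single library, and that for *pmk-1(D327E)* in 16 of 21 and with a filter of 5 TPM (adjusted p = 0.139).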

How the results depend on the processing

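Counts of called members depended on which genotypes entered the fit. Fitting only the genotypes compared called 2 for *pmk-1(-)* against wild type and 4 for *pmk-1(D327E)* against *pmk-1(-)*. It called 0 for *daf-16(mgDf50)* against wild type, for each *pmk-1* mutation in *daf-16(mgDf50)* worms against *daf-16(mgDf50)* and for the interactions. In *daf-16(m26)* worms it called 13 for *pmk-1(-)* against *daf-16(m26)* and 16 between the *pmk-1* mutants. With a pseudocount of 0.1, *pmk-1(-)* against wild type gave 8. *daf-16(mgDf50)* against wild type gave 1 without the filter, with rescaled libraries or at an adjusted p below 0.05, and *pmk-1(-)* in *daf-16(m26)* worms gave 3 with rescaled libraries or at that threshold. The fits of the genotypes compared hold fewer samples, and the cause of the other changes was not tested.

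With the replicate number as a block, *pmk-1(-)* against wild type gave 9 (1.67% of all genes), *pmk-1(D327E)* against wild type 2 (0.202%) and *pmk-1(D327E)* against *pmk-1(-)* 18 (2.09%). *daf-16(mgDf50)* and *daf-16(m26)* against wild type gave 29 and 28, when 34.7% and 23.2% of all genes were called. *pmk-1(-)* gave 8 (0.989%) in *daf-16(mgDf50)* worms and 10 (1.29%) in *daf-16(m26)* worms. No reported call was lost with the block. Same-numbered deviations correlated at 0.0174, 0.711 and 0.766 between *pmk-1(D327E)* and wild type and at -0.317, 0.705 and 0.372 between *pmk-1(D327E)* and *pmk-1(-)*, not all above 0.1, so the numbers were not taken as pairs there, and the genotypes with 2 libraries have too few pairs for this check. Libraries 1 and 2 nonetheless differed in the same direction in all 9 genotypes for 11.6% (library 1 higher) and 21.5% (library 2 higher) of all genes.

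With the mean *msp* level as a covariate, chosen after seeing the data, the counts, each with the share of all genes called, were 14 (1.44%), 1 (0.179%) and 19 (2.33%) for *pmk-1(-)* against wild type, *pmk-1(D327E)* against wild type and *pmk-1(D327E)* against *pmk-1(-)*. They were 15 (9.37%) for *daf-16(mgDf50)* and 1 (0.327%) for *daf-16(m26)* against wild type. In *daf-16(mgDf50)* worms they were 18 (3.32%) for *pmk-1(-)*, 2 (0.677%) for *pmk-1(D327E)* and 16 (2.48%) between both. In *daf-16(m26)* worms they were 11 (1.07%) for *pmk-1(-)* and 14 (1.49%) between both, and the interactions gave 2.

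Leaving out single libraries gave 3 to 8 for *pmk-1(-)* against wild type, 8 to 14 for *pmk-1(D327E)* against *pmk-1(-)* and 1 to 4 for *daf-16(mgDf50)* against wild type, with 4 without *daf-16(mgDf50)* library 2. In *daf-16(mgDf50)* worms it gave 2 to 5 for *pmk-1(-)*, 0 to 1 for *pmk-1(D327E)* and 6 to 8 between both. In *daf-16(m26)* worms it gave 2 to 3 for *pmk-1(-)* and 4 between both. Where this left a genotype with 1 library, that library was assumed to vary like the other genotypes. The interactions gave 0 to 1, with 0 without *daf-16(mgDf50)* library 1 or *daf-16(mgDf50);pmk-1(-)* library 2. Of the named members' alternatives, 556 kept direction and side of the threshold, 57 lost and 20 gained a call, and 3 turned direction. Those 3 were the uncalled *clec-223* in *pmk-1(D327E)* against wild type, which ranged from -0.37 to 0.033 without single libraries, with 0.01 without *pmk-1(D327E)* library 3 and 0.033 without wild type library 2 or library 2 of both *pmk-1(-)* and wild type. TPM keeps no depth, so what depth limits is unknown.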
